A study of Homo sapiens with 21 samples.

Results

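The 10 genes described here encode parts of the MHC class II system and its costimulators: the class II chains HLA-DRA, HLA-DPA1 and HLA-DPB1, the peptide exchange factor chains HLA-DMA and HLA-DMB, the invariant chain CD74, the transactivator CIITA, and the costimulatory molecules CD86, CD80 and CD40. They were taken by symbol from the platform annotation. The Affymetrix HT U133A array measures a transcript through a probe set, a group of short oligonucleotides. On it 20 probe sets carried these 10 symbols, and 12165 genes were tested in all. The arrays profiled MOLM-14, U937 and HL-60, established human acute myeloid leukaemia cell lines, after knockdown of SYK, a kinase of the cytoplasm that relays signals of immune receptors, by short hairpin RNAs. Each line had 3 arrays with a hairpin against luciferase (shLuc, the control), 2 with shSYK_1 and 2 with shSYK_2, which made 21 arrays in 9 groups. All groups, controls included, had been infected and then selected with puromycin at 1 µg/ml from 48 h after infection, and RNA was taken at day 5. Replicates were taken as separate transductions of 1 line each, and a p-value here covers the spread between replicate arrays and no more. The series concerns SYK and the receptor kinase FLT3 in acute myeloid leukaemia. The comparisons below ask how the level of the 10 genes differed between the lines and with each SYK hairpin.

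MHC class II molecules are heterodimers of an alpha and a beta chain that carry peptides from the endosomal pathway to the surface, where CD4+ T cells read them. The invariant chain occupies the groove of a new class II dimer until it is degraded, and HLA-DM then exchanges its remnant for antigenic peptide. CIITA, bound to a complex of RFX, NF-Y and CREB factors on the X and Y boxes of class II promoters, controls the transcription of the chains, of HLA-DM and in part of CD74. CD80 and CD86 on an antigen-presenting cell give T cells the second signal through CD28, and CD40 receives the T cell's CD40 ligand. Monocytic cells carry class II and CD86 at levels that depend on their maturation and on cytokines, above all interferon gamma.

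The hairpins are printed because several of these genes differed between them. The target sequences of both SYK hairpins, each of 21 bases and given 5′ to 3′ as the labels state them, were:
shSYK_1: gcagcagaacagacatgtcaa
shSYK_2: gcaggccatcatcagtcagaa
Promoter sequence is shown for the 3 members in which a letter search matched the cores of both class II boxes, since these genes did not move as a unit. The search covered the 250 bases before the start of each entry in the RefSeq promoter table (GRCh38.p14), which held 9 entries for 7 of the 10 members. HLA-DRA, CIITA and CD40 had no entry. The letters searched on both strands were AGNNAC, any 3 bases and TGATG for the X box core, and ATTGG for the Y box core (CCAAT on the other strand), and they were chosen after these promoters had been read. The matches are in capitals below, the X box core first. The stretches lie on the minus strand at chr6:32953122-32953230 for HLA-DMA, chr6:32941029-32941136 for HLA-DMB and chr5:150412939-150413011 for CD74.
HLA-DMA: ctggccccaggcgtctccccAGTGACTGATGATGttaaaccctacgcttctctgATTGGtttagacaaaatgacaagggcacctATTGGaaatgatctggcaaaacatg
HLA-DMB: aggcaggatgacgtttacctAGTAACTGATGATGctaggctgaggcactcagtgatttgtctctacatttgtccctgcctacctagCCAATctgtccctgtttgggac
CD74: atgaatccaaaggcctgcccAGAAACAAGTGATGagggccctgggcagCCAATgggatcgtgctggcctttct
The X box core ended 20 bases before the next Y box core in HLA-DMA, 52 bases before it in HLA-DMB and 14 bases before it in CD74. The search set no spacing, and the Y box letters of HLA-DMB and CD74 were matched on the other strand. Whether the HLA-DMB match is its Y box was not tested. Of 35116 promoters in the table, 46 (0.131%) held the X box core, 11240 (32%) the Y box core and 15 (0.0427%) both. HLA-DPB1 held 2 Y box cores and no match to the X box letters, and the entries of HLA-DPA1, CD86 and CD80 held neither. A match is a description of letters and not a measured site.

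SYK itself was lower with both hairpins in every line. On the log2 intensity scale its shLuc means were 8.45 for MOLM-14, 8.68 for U937 and 8.99 for HL-60. SYK fell by 2.29, 1.68 and 1.97 from these levels with shSYK_1. With shSYK_2 it fell by 2.96, 2.13 and 2.21. The array HL-60 shSYK_2 replicate 1 carried shSYK_2 in its title and treatment but shSYK_1 in its source name, and it stood apart from the others. Its upper quartile of intensity was 122.3 against 134.49 to 139.77 on the others, and its log2 differences to its partner had an SD of 0.294 against 0.162 to 0.199 in the other replicate pairs. Some HL-60 values and averages over lines that rest on it are therefore given with and without it. The others, and the counts of genes called, include it unless stated otherwise. The lines were checked against marker lists. Among 7 promyelocytic markers MPO and PRTN3 were higher on the log2 scale in HL-60 than in U937 controls (9.42 ± 0.114 and 1.66 ± 0.0955, SE). AZU1 and CTSG were lower in HL-60 (-2.53 ± 0.0663 and -1.83 ± 0.0562). The median of the 7 markers' log2 group means was higher in HL-60 than in U937 controls. The 9 monocytic markers summed to intensities of 724 to 793 in MOLM-14, 381 to 399 in U937 and 597 to 621 in HL-60 controls. Such a sum is weighted towards the brightest genes. The medians of the markers' log2 group means were 4.02, 3.92 and 4.92 in the same order, highest in HL-60. CD14 and FCN1 were higher in HL-60 than in MOLM-14 controls (3.47 ± 0.133 and 0.89 ± 0.109). FCGR1A and ITGAM were lower there (-0.68 ± 0.0554 and -0.45 ± 0.0986). All 9 B cell markers had group means under 5 on the log2 scale in every MOLM-14 and HL-60 group and in U937 with shSYK_1. FCER2 alone passed that level in U937 with shLuc and with shSYK_2.

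At baseline the class II chains, the HLA-DM chains and CD74 had their highest control means in MOLM-14, and all of them but HLA-DPB1 had their lowest in HL-60. HLA-DRA, the invariant alpha chain of HLA-DR, had log2 intensities of 7.06, 7.14 and 7.36 on the MOLM-14 shLuc arrays, 4.25, 4.25 and 4.52 in U937, and 3.50, 3.54 and 3.45 in HL-60. The 3 lines did not overlap. The U937 mean was 2.85 ± 0.135 (SE) log2 units below MOLM-14, a 7.19-fold difference (limma adjusted p = 8.51e-12). The HL-60 mean was 3.69 ± 0.135 below MOLM-14 (limma adjusted p = 3.98e-13) and 0.84 ± 0.135 below U937 (limma adjusted p = 4.04e-05). RMA, the method behind these values, gives no detection call and compresses differences near the bottom of the scale, so an order between levels around 3 says little about RNA amounts. Probes to HLA genes can also bind near-identical HLA transcripts, which leaves the gene assignment of their signal uncertain.

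HLA-DPA1, the alpha chain of HLA-DP, averaged 4.97 ± 0.386 (SD, n = 3) in MOLM-14 controls, against 3.20 ± 0.134 for U937 and 2.96 ± 0.114 for HL-60. Its partner HLA-DPB1 averaged 3.25 ± 0.238, 2.68 ± 0.169 and 2.78 ± 0.226 in the same order. Both were lower in U937 and in HL-60 than in MOLM-14 by the test, and U937 and HL-60 did not differ beyond their spread in either gene. The HLA-DPB1 difference between HL-60 and MOLM-14, -0.47 ± 0.139 (limma adjusted p = 0.00928), was lost when HL-60 shLuc replicate 3 was left out, at -0.34 (limma adjusted p = 0.0618). HLA-DMA, the alpha chain of HLA-DM, stood at 5.61 ± 0.109 in MOLM-14 and 5.49 ± 0.108 in U937, which did not differ beyond their spread, but at 3.49 ± 0.159 in HL-60, 2.12 ± 0.122 (SE) below MOLM-14 (limma adjusted p = 1.71e-10). HLA-DMB averaged 3.99 ± 0.0365, 3.66 ± 0.176 and 3.46 ± 0.23, and only the ends of that order differed by the test. CD74, which also serves as a receptor for the cytokine MIF, averaged 7.47 ± 0.11, 6.98 ± 0.0358 and 6.13 ± 0.0669, and every pair of lines differed by the test.

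The costimulators did not share a common order of the lines. CD86 read 4.96, 4.80 and 4.76 in MOLM-14, 3.02, 2.92 and 2.90 in U937, and 4.96, 5.02 and 5.23 in HL-60 controls. U937 was low and the other 2 lines overlapped: HL-60 exceeded U937 by 2.13 ± 0.145 (SE, limma adjusted p = 1.21e-09) and MOLM-14 by 0.23 ± 0.145 (limma adjusted p = 0.201). In the order MOLM-14, U937 and HL-60, CD80 averaged 2.92 ± 0.084, 2.89 ± 0.0603 and 3.20 ± 0.0417, and CD40 averaged 4.91 ± 0.09, 4.51 ± 0.065 and 4.67 ± 0.0673. CIITA lay between 3.11 and 3.26 in all 3 controls and did not differ between any pair of lines by the test, although HLA-DRA differed between all 3. Without HL-60 shLuc replicate 1, the CIITA differences of HL-60 passed the test, at -0.24 from MOLM-14 (limma adjusted p = 0.0478) and -0.25 from U937 (limma adjusted p = 0.0333). Another CIITA probe set was lower in HL-60, with differences of -0.50 from MOLM-14 (limma adjusted p = 5.75e-04, here and below over all probe sets where another probe set is named) and -0.56 from U937 (limma adjusted p = 1.53e-04).

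Counted over the members, 6 of 10 were lower and 0 higher in U937 than in MOLM-14, where 52.1% of all genes differed and 25.7% were lower. In HL-60 against MOLM-14, 7 were lower and 1, CD80, was higher, against a background of 49.4% called, 23.0% lower and 26.4% higher. In HL-60 against U937, 3 were lower and 2 higher, against 52.8% called. The median difference of the members was -0.45, -0.50 and -0.17 in these comparisons, beside 0.006, 0.056 and 0.045 over all genes tested. Centring each array on its median moved the median of all genes by 0.11 in HL-60 against MOLM-14 and by 0.118 in HL-60 against U937, and raised the share of higher calls from 53.5% to 67.3% and from 51.2% to 64.3%. Under that centring CD40 was no longer lower in HL-60 than in MOLM-14 (-0.13 in place of -0.24) and was higher in HL-60 than in U937 (0.29, limma adjusted p = 0.00989). The lower CD40 call was lost in 11 alternatives in all, among them the omission of any HL-60 control or of MOLM-14 shLuc replicate 2 or 3 (-0.20 to -0.26). With the replicate number as a block, which the design does not call for, HL-60 and MOLM-14 controls differed in 5 members instead of 8. The share of all genes called under that block is not given here.

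**Figure D1:**
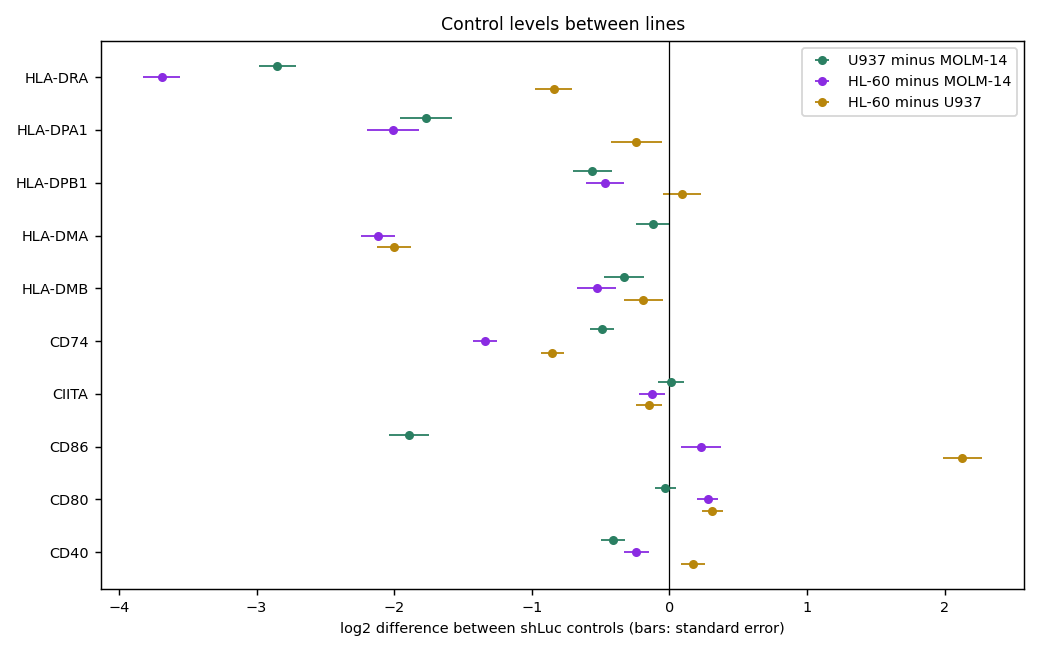
Differences in log2 intensity between shLuc controls of the 3 lines (x axis) for the 10 members (y axis), 3 arrays a line. Points are differences of means and bars their standard errors. HLA-DRA lies farthest to the left at -2.85 for U937 and -3.69 for HL-60 against MOLM-14, and CD86 is at 2.13 for HL-60 against U937.

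After SYK knockdown several members differed between the hairpins. HLA-DRA rose with shSYK_2 in MOLM-14 and U937 and did not change by the test with shSYK_1 in any line, whereas CD86 and HLA-DMA rose with shSYK_1 in all 3 lines. With shSYK_2, CD86 fell in MOLM-14 and rose in U937 and HL-60, and HLA-DMA rose in U937. CD74 rose in HL-60 with both hairpins and fell with shSYK_1 in U937. CIITA, CD80, CD40 and HLA-DMB passed the test with neither hairpin in any single line. Both hairpins are compared with the same shLuc arrays, so their changes are not independent of each other. In these bulk samples fewer cells that carry a transcript and less of it per cell cannot be told apart.

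HLA-DRA in MOLM-14 read 6.80 and 7.03 with shSYK_1 and 8.06 and 8.28 with shSYK_2, beside 7.06, 7.14 and 7.36 with shLuc. Both shSYK_2 arrays were above every control, and both shSYK_1 arrays were just below the lowest one. The change was 0.98 ± 0.151 (SE) log2 units, 1.98-fold, with shSYK_2 (limma adjusted p = 2.44e-04) and -0.27 ± 0.151 with shSYK_1 (limma adjusted p = 0.232). In U937 the shSYK_1 arrays read 3.92 and 4.58 and the shSYK_2 arrays 6.14 and 5.99, beside 4.25, 4.25 and 4.52 with shLuc. The shSYK_2 arrays again stood clear of the controls and the shSYK_1 arrays lay on both sides of them. The change with shSYK_2 was 1.73 ± 0.151, 3.32-fold (limma adjusted p = 5.08e-07), and -0.09 ± 0.151 with shSYK_1 (limma adjusted p = 0.784). With that rise U937 still stayed below the MOLM-14 controls. In HL-60 all 7 arrays lay between 3.45 and 3.61, near the bottom of the scale, and neither hairpin changed HLA-DRA by the test.

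The direct comparison of the hairpins put HLA-DRA higher with shSYK_2 by 1.25 ± 0.165 in MOLM-14 (limma adjusted p = 2.38e-05) and by 1.82 ± 0.165 in U937 (limma adjusted p = 6.17e-07). In HL-60 the difference was -0.03 ± 0.165 (limma adjusted p = 0.919). Averaged over the lines it was 1.01 ± 0.0954 (limma adjusted p = 3.25e-07), and 1.03 without the HL-60 array with conflicting labels. The second HLA-DRA probe set rose with shSYK_2 too, by 0.86 for MOLM-14 (limma adjusted p = 0.00967) and 1.17 for U937 (limma adjusted p = 8.90e-04). In HL-60 this probe set read 4.63 on the array with conflicting labels and 3.68 on its partner, beside 3.78, 3.55 and 3.77 with shLuc. The 2 probe sets disagreed on shSYK_1: averaged over lines the second was lower by 0.34 (limma adjusted p = 0.0405), while the brighter one gave -0.09 ± 0.0871 (limma adjusted p = 0.498).

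HLA-DPA1 leaned the same way as HLA-DRA with less signal. In MOLM-14 it read 4.58, 4.98 and 5.35 with shLuc, 4.47 and 4.27 with shSYK_1, and 5.05 and 5.72 with shSYK_2. The shSYK_1 arrays lay below the controls and the shSYK_2 arrays overlapped them. The change with shSYK_2 was 0.41 ± 0.211 (limma adjusted p = 0.222), and with the mean of the gene's probe sets it passed the test at 0.47 (limma adjusted p = 0.00233). A dimmer HLA-DPA1 probe set read 3.85, 3.51 and 3.73 with shLuc and 4.43 and 4.25 with shSYK_2, without overlap, a rise of 0.64 ± 0.134 (limma adjusted p = 0.00318). The dimmest, at 3.19 or less on these arrays, rose by 0.34 ± 0.1 (limma adjusted p = 0.0305). The fall of the brightest probe set with shSYK_1, -0.60 ± 0.211 (limma adjusted p = 0.0456), was lost in 19 of the alternatives run. Among them were the omission of MOLM-14 shLuc replicate 2 (-0.60, limma adjusted p = 0.0901), of shLuc replicate 3 (-0.41, limma adjusted p = 0.182), of either shSYK_1 array (-0.70 and -0.50), and of 10 single arrays of the other lines, where the value stayed at -0.60. In U937 it read 3.11, 3.14 and 3.35 with shLuc and 3.95 and 3.66 with shSYK_2, a difference of 0.61 ± 0.211 that missed the threshold (limma adjusted p = 0.0627) although the groups did not overlap. That difference passed the test in 7 of 31 alternatives. The hairpins themselves differed by 1.01 ± 0.231 in MOLM-14 (limma adjusted p = 0.00313) and by 0.85 ± 0.231 in U937 (limma adjusted p = 0.0127). The first was lost without MOLM-14 shSYK_2 replicate 2 (0.68, limma adjusted p = 0.0741). The second was lost without U937 shSYK_1 replicate 1 (0.58, limma adjusted p = 0.179) and without U937 shSYK_2 replicate 1 (0.70, limma adjusted p = 0.116).

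HLA-DPB1, the beta chain that pairs with HLA-DPA1, did not rise by the test with either hairpin. In MOLM-14 it read 2.97, 3.37 and 3.40 with shLuc, 2.52 and 2.60 with shSYK_1, and 3.16 and 3.07 with shSYK_2. The shSYK_1 arrays were below all controls, a fall of -0.69 ± 0.155 (limma adjusted p = 0.00314), and the shSYK_2 arrays lay among them. The hairpins differed by 0.55 ± 0.17 (limma adjusted p = 0.0225), a call that was lost without any 1 of the 4 knockdown arrays (0.51 to 0.60). These values are at the bottom of the scale, where RMA compresses most. In U937 and HL-60 the 14 arrays ranged from 2.38 to 3.18 and no hairpin passed the test.

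HLA-DMA, the alpha chain of HLA-DM, rose with shSYK_1 in every line and with shSYK_2 in U937. It read 5.54, 5.56 and 5.74 in MOLM-14 controls, 6.64 and 6.35 with shSYK_1, and 5.74 and 5.82 with shSYK_2. In U937 it read 5.61, 5.41 and 5.45 with shLuc, 6.18 and 6.19 with shSYK_1, and 6.23 and 6.16 with shSYK_2. In HL-60 it read 3.67, 3.41 and 3.38 with shLuc, 4.10 and 4.60 with shSYK_1, and 3.61 and 3.31 with shSYK_2. All shSYK_1 arrays lay above the controls of their line, and the shSYK_2 arrays did so in U937 alone. HLA-DMA rose with shSYK_1 by 0.88 ± 0.137 in MOLM-14 (limma adjusted p = 1.27e-04), by 0.70 ± 0.137 in U937 (limma adjusted p = 0.00174) and by 0.86 ± 0.137 in HL-60 (limma adjusted p = 1.55e-04). With shSYK_2 it rose by 0.70 ± 0.137 in U937 (limma adjusted p = 0.00164).

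The hairpins differed in HLA-DMA by -0.72 ± 0.15 in MOLM-14 (shSYK_2 minus shSYK_1, limma adjusted p = 0.00162) and by -0.89 ± 0.15 in HL-60 (limma adjusted p = 4.45e-04). In U937 the difference was 0.01 ± 0.15. Without the array with conflicting labels the HL-60 difference was -1.04 (limma adjusted p = 9.86e-04), and with that array placed in shSYK_1 it was -0.79 (limma adjusted p = 0.189). The rise of HLA-DMA over both hairpins in HL-60, 0.41 ± 0.114 (limma adjusted p = 0.0134), was lost without that array (0.34, limma adjusted p = 0.057), without shLuc replicate 2 (0.38, limma adjusted p = 0.0581), without shLuc replicate 3 (0.36, limma adjusted p = 0.0652) and without shSYK_1 replicate 2 (0.29, limma adjusted p = 0.0662). With the conflicting array placed in shSYK_1 it was 0.22 (limma adjusted p = 0.468). HLA-DMB, the beta chain of HLA-DM, ranged from 3.28 to 4.28 over the 21 arrays. Its rise averaged over lines and both hairpins, 0.23 ± 0.0771 (limma adjusted p = 0.03), was lost in 13 alternatives. They included the omission of the conflicting array (0.19, limma adjusted p = 0.0554) and of each of 10 other single arrays from all 3 lines, which gave 0.20 to 0.22.

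CD74 had a different direction in different lines. In MOLM-14 all 7 arrays lay between 7.31 and 7.58 and nothing passed the test. In U937 it read 7.02, 6.97 and 6.95 with shLuc, 6.57 and 6.49 with shSYK_1, and 7.17 and 7.36 with shSYK_2. The shSYK_1 arrays were all below and the shSYK_2 arrays all above the controls. The fall with shSYK_1 was -0.46 ± 0.0966 (limma adjusted p = 0.00311), the difference with shSYK_2 was 0.28 ± 0.0966 (limma adjusted p = 0.0599), and the hairpins differed by 0.74 ± 0.106 (limma adjusted p = 6.85e-05). The shSYK_2 difference passed the test in 9 of 32 alternatives. In HL-60 it read 6.06, 6.18 and 6.15 with shLuc, 6.70 and 6.66 with shSYK_1, and 6.98 and 6.68 with shSYK_2, so every knockdown array was above every control. CD74 rose there by 0.55 ± 0.0966 with shSYK_1 (limma adjusted p = 3.72e-04) and by 0.70 ± 0.0966 with shSYK_2 (limma adjusted p = 8.11e-05). Without the array with conflicting labels the shSYK_2 change was 0.55 (limma adjusted p = 0.00328).

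CIITA, the transactivator of these genes, ranged from 2.92 to 3.42 over the 21 arrays in its brightest probe set and passed the test for no hairpin in any line. Its largest single change was -0.25 ± 0.106 with shSYK_1 in U937 (limma adjusted p = 0.126). In the lines where HLA-DRA rose with shSYK_2, CIITA differed from shLuc by 0.02 ± 0.106 in MOLM-14 and -0.10 ± 0.106 in U937. The other CIITA probe sets ranged from 2.41 to 2.97 and from 2.67 to 3.60. All of these readings are near the bottom of the scale, so a change in a scarce transcript may not have been detectable.

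CD86, the ligand of CD28 and CTLA4, had the largest changes of the 10. In MOLM-14 it read 6.48 and 6.09 with shSYK_1 and 3.68 and 3.68 with shSYK_2, beside 4.96, 4.80 and 4.76 with shLuc. The hairpins moved it to opposite sides of the controls. It rose by 1.45 ± 0.163 with shSYK_1, 2.73-fold (limma adjusted p = 5.39e-06), and fell by 1.16 ± 0.163 with shSYK_2 (limma adjusted p = 1.07e-04). In U937 it read 5.31 and 5.13 with shSYK_1 and 3.27 and 3.66 with shSYK_2, beside 3.02, 2.92 and 2.90. The rise with shSYK_1, from controls near the bottom of the scale, was 2.28 ± 0.163, 4.85-fold (limma adjusted p = 5.31e-08). The one with shSYK_2, 0.52 ± 0.163 (limma adjusted p = 0.0382), was lost without any one of the 3 shLuc arrays of the line or without shSYK_2 replicate 2 (0.33, limma adjusted p = 0.392), and these 4 settings gave 0.33 to 0.56. In HL-60 it read 7.20 and 7.35 with shSYK_1 and 5.98 and 6.63 with shSYK_2, beside 4.96, 5.02 and 5.23, and all 4 knockdown arrays exceeded the controls. It rose there by 2.20 ± 0.163 with shSYK_1, 4.61-fold (limma adjusted p = 3.53e-08), and by 1.23 ± 0.163 with shSYK_2 (limma adjusted p = 5.41e-05).

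CD86 was lower with shSYK_2 than with shSYK_1 in every line, by 2.61 ± 0.178 in MOLM-14 (limma adjusted p = 2.11e-08), 1.76 ± 0.178 in U937 (limma adjusted p = 1.85e-06) and 0.97 ± 0.178 in HL-60 (limma adjusted p = 8.95e-04). Without the array with conflicting labels the HL-60 difference was -0.65 (limma adjusted p = 0.0194), still called, and with it placed in shSYK_1 it was -0.22 (limma adjusted p = 0.862). Averaged over lines, the shSYK_2 change of 0.20 ± 0.0938 (limma adjusted p = 0.129) became 0.31 without that array (limma adjusted p = 0.0095). Both dimmer CD86 probe sets rose with shSYK_1 on average, by 1.11 (limma adjusted p = 1.32e-08) and 0.67 (limma adjusted p = 7.43e-08). They did not share the fall with shSYK_2 in MOLM-14, where they gave -0.07 (limma adjusted p = 0.838) and -0.21 (limma adjusted p = 0.198). All their MOLM-14 shLuc values were at 3.47 or less.

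CD80, the other ligand of CD28, ranged from 2.82 to 3.32 over the 21 arrays, and CD40, a TNF receptor family member, from 4.36 to 5.17. Neither passed the test with any hairpin in any line. The hairpin changes of CD80 ran from -0.11 ± 0.0852 to 0.13 ± 0.0852 and those of CD40 from -0.05 ± 0.0997 to 0.14 ± 0.0997. CD86 was thus the only one of the 3 costimulators with a called change in its brightest probe set. The dimmer CD40 probe sets read 3.31 or less on every array, near the bottom of the scale. In MOLM-14, 1 of them read 2.44, 2.23 and 2.52 with shLuc and 2.75 and 2.90 with shSYK_1.

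**Figure D2:**
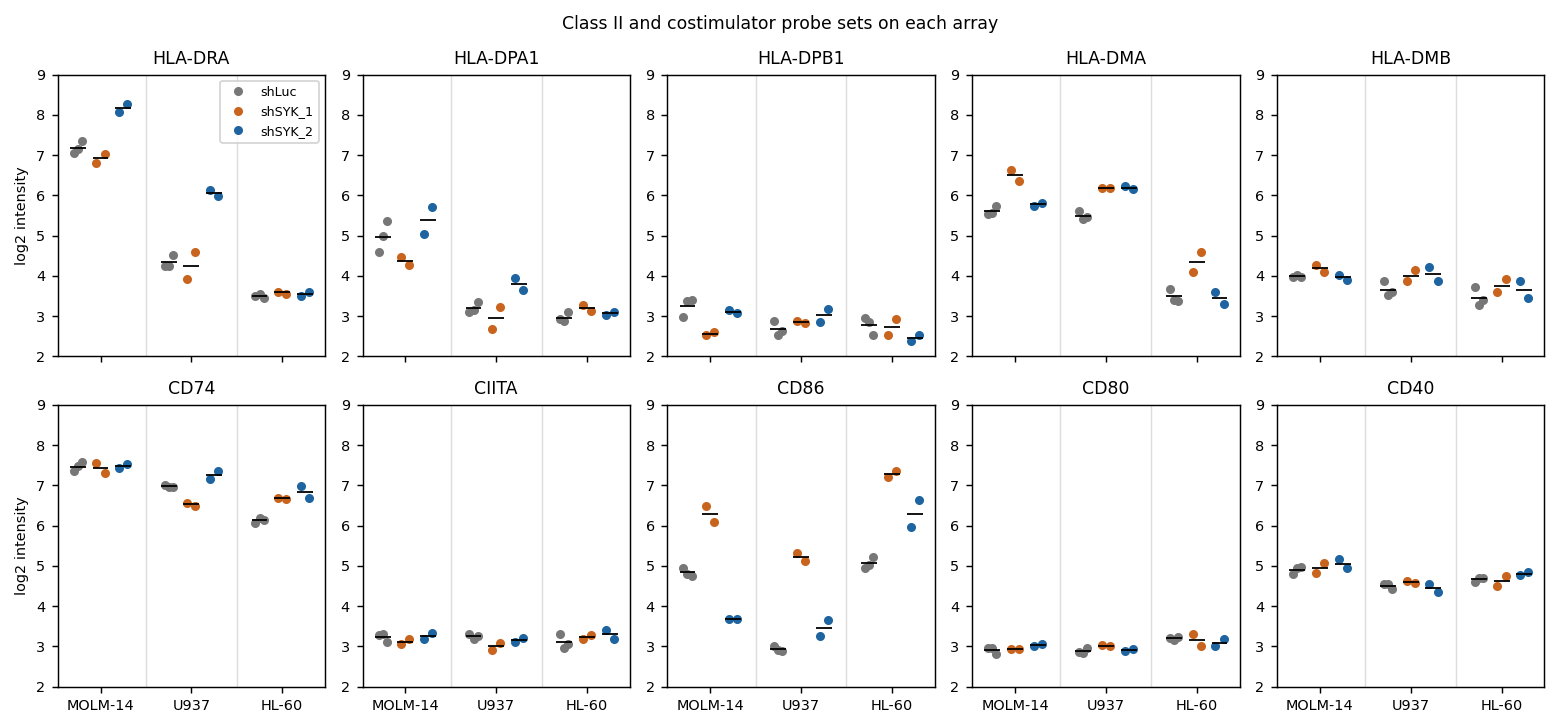
Log2 intensity (y axis) of the brightest probe set of each of the 10 members on all 21 arrays, by line (x axis) and hairpin (colour). Points are arrays and bars group means. HLA-DRA is high with shSYK_2 in MOLM-14 (8.06 and 8.28) and U937 (6.14 and 5.99), and CD86 is high with shSYK_1 in all 3 lines.

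Counted by line and hairpin, 4 of the 10 members were called with shSYK_1 in MOLM-14 (2 higher and 2 lower, where 25.5% of all genes were called), 3 in U937 (16.9%) and 3 in HL-60 (24.3%). With shSYK_2, MOLM-14 had 2 (16.6%), U937 had 3 (16.2%) and HL-60 had 2 (21.5%). Between the hairpins MOLM-14 had 5 members that differed (25.9%), U937 had 4 (23.0%) and HL-60 had 2 (22.2%). Among 10 members a difference of 1 or 2 genes from these shares is not a result about the list.

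Averaged over lines and both hairpins, 5 of the 10 members rose (HLA-DRA, HLA-DMA, HLA-DMB, CD74 and CD86) and 0 fell, where 34.1% of all genes were called and 17.1% were higher. The members' median change was 0.13, beside 0.005 over all genes. For shSYK_1 alone the count was 3 higher and 0 lower against 35.6% called, with a median of 0.02 beside -0.002. For shSYK_2 it was 4 higher and 0 lower against 30.3% called, with a median of 0.19 beside 0.016. With shSYK_1 the members called were HLA-DMA (0.81 ± 0.0789), HLA-DMB (0.28 ± 0.0922) and CD86 (1.98 ± 0.0938). The HLA-DMB call was lost without MOLM-14 shSYK_1 replicate 1, U937 shLuc replicate 2, U937 shSYK_1 replicate 2, HL-60 shLuc replicate 2 or HL-60 shSYK_1 replicate 2 (0.23 to 0.25). With shSYK_2 they were HLA-DRA (0.92 ± 0.0871), HLA-DPA1 (0.38 ± 0.122), HLA-DMA (0.28 ± 0.0789) and CD74 (0.33 ± 0.0558). HLA-DMA is the one name in both, and without the conflicting array its shSYK_2 change was 0.23 (limma adjusted p = 0.0502). That of HLA-DPA1 was lost without MOLM-14 shSYK_2 replicate 2 (0.26, limma adjusted p = 0.119), without U937 shSYK_2 replicate 1 (0.33, limma adjusted p = 0.0877) and, at 0.37, when HL-60 shSYK_2 replicate 2 was left out (limma adjusted p = 0.0511).

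The direct test of shSYK_2 against shSYK_1, averaged over lines, called 5 of 10 members against 35.7% of all genes. HLA-DRA, HLA-DPA1 (0.58 ± 0.133) and CD74 (0.32 ± 0.0611) were higher with shSYK_2. HLA-DMA (-0.53 ± 0.0865) and CD86 (-1.78 ± 0.103) were lower. None of the 10 was called in 1 direction in all 6 hairpin and line combinations, which 78 genes (0.641%) were. CD86 was called in all 6 but fell in 1 of them, HLA-DMA rose in 4, HLA-DRA in 2, and CD74 rose in 2 and fell in 1. Over both hairpins within a line, 2 of 10 were called in MOLM-14 (19.4% of all genes), 3 in U937 (14.7%) and 3 in HL-60 (24.4%). The MOLM-14 pair were HLA-DMA, higher by 0.52 ± 0.114 (limma adjusted p = 0.00349), and HLA-DPB1, lower by 0.41 ± 0.13 (limma adjusted p = 0.0335). HLA-DRA missed the threshold there at 0.36 ± 0.126 (limma adjusted p = 0.0583) and passed it in 8 of 32 alternatives. The HLA-DPB1 call was lost without shLuc replicate 2 (-0.35, limma adjusted p = 0.134), without shLuc replicate 3 (-0.34, limma adjusted p = 0.145) and without any of the 4 knockdown arrays, where it ran from -0.39 to -0.44.

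**Figure D3:**
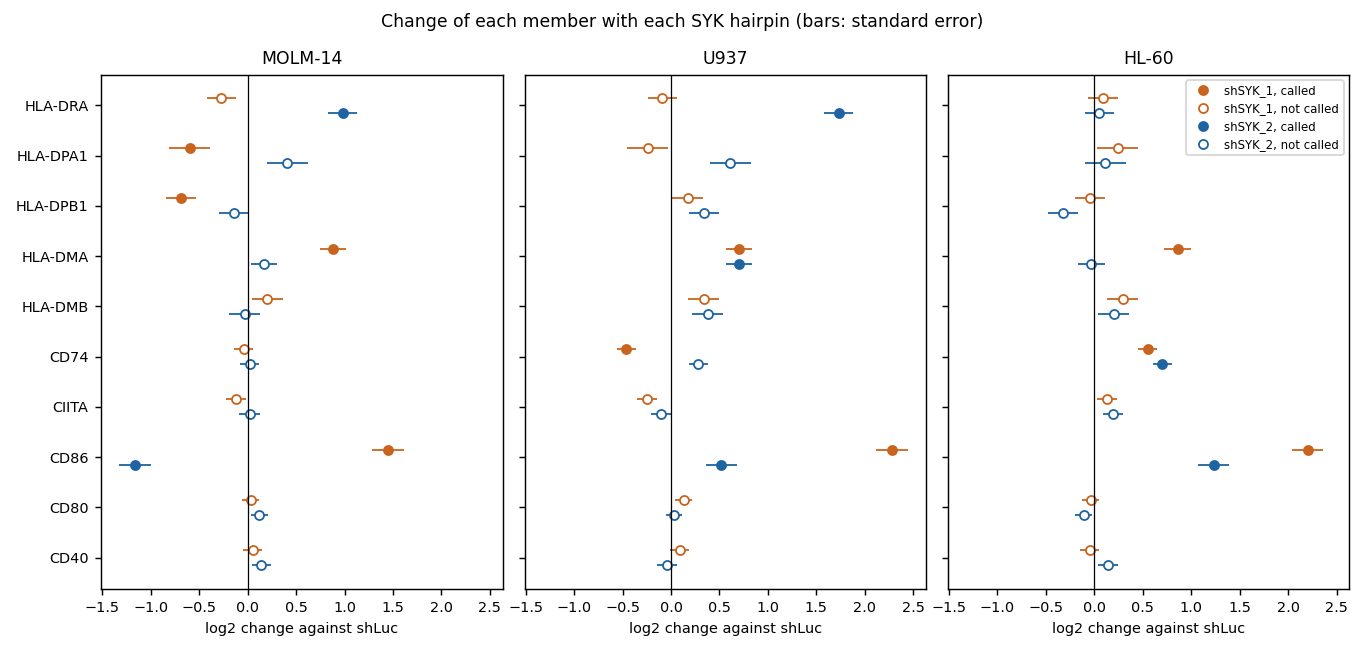
Log2 change against shLuc (x axis) of each member (y axis) with shSYK_1 and shSYK_2 in each line, with standard errors as bars. Filled points passed a limma adjusted p below 0.05. CD86 with shSYK_1 is at 1.45, 2.28 and 2.20, and HLA-DRA with shSYK_2 at 0.98, 1.73 and 0.05.

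The responses of the lines were compared directly, taking the mean of both hairpins against shLuc. CD86 responded less in MOLM-14 than in HL-60, by 1.57 ± 0.192 (limma adjusted p = 6.78e-05), and less than in U937, by 1.25 ± 0.192 (limma adjusted p = 0.00101). Its MOLM-14 mean change, 0.14 ± 0.136, averages a rise with one hairpin and a fall with the other. CD74 responded more in HL-60, where it rose by 0.63 ± 0.0808, than in MOLM-14 (-0.01 ± 0.0808) or U937 (-0.09 ± 0.0808). HLA-DRA responded more in U937 (0.82 ± 0.126) than in HL-60 (0.07 ± 0.126), with a difference of 0.75 ± 0.179 (limma adjusted p = 0.0173). The HL-60 readings lay near the bottom of the scale, where RMA compresses differences. The U937 value averages a called rise with shSYK_2 and a change with shSYK_1 that was not called. The MOLM-14 and U937 responses of HLA-DRA differed by -0.46 ± 0.179 (limma adjusted p = 0.191), and without U937 shSYK_1 replicate 1 by -0.63 (limma adjusted p = 0.0199). Other probe sets did not share all of these differences. The second HLA-DRA probe set gave 0.27 between U937 and HL-60 (limma adjusted p = 0.629), and the dimmer CD86 probe sets gave -0.10 (limma adjusted p = 0.866) and 0.05 (limma adjusted p = 0.904) between MOLM-14 and U937. The dimmer CD86 probe sets did differ between MOLM-14 and HL-60, both by -0.99. Without the array with conflicting labels the HL-60 comparisons were -1.74 for CD86 and -0.57 for CD74 against MOLM-14, and -0.64 for CD74 and 0.72 for HLA-DRA against U937, and all were still called. In these 3 comparisons 1, 2 and 2 members were called, against 3.70% (MOLM-14 against U937), 8.48% (MOLM-14 against HL-60) and 6.88% (U937 against HL-60) of all genes.

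Across the 21 arrays, after the mean of each line was subtracted, HLA-DRA and HLA-DPA1 varied together (Pearson r = 0.81), as did HLA-DMA with HLA-DMB (0.73) and HLA-DMA with CD86 (0.71). HLA-DRA and CD86 gave -0.38, and HLA-DPA1 and CD86 gave -0.44. HLA-DRA and HLA-DMA, class II genes of one locus, gave 0.10. These are descriptions: the arrays share lines and hairpin groups, and the members were fitted on the same arrays.

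**Figure D4:**
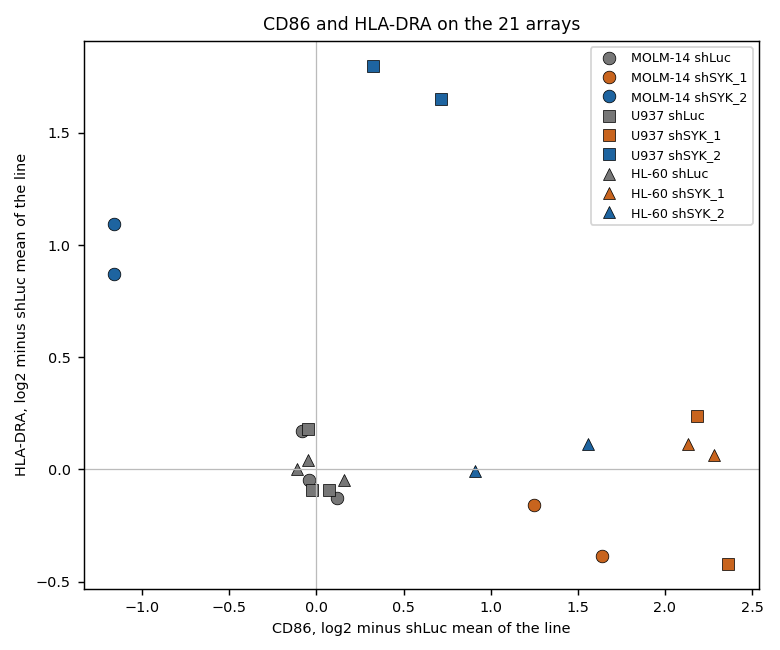
CD86 (x axis) and HLA-DRA (y axis) on each of the 21 arrays as log2 difference from the shLuc mean of the line, with lines as shapes and hairpins as colours. The shSYK_2 arrays of U937 and MOLM-14 lie high on the HLA-DRA axis, and the shSYK_1 arrays lie far to the right on the CD86 axis.

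Other genes of the pathway were followed through lists of the class II system. Over both hairpins and lines the share of all genes called, for comparison with each list, was the 34.1% given above. Of 7 other class II chains tested, 1 rose and 0 fell, with a median of -0.02. It was HLA-DRB1, the beta chain that pairs with HLA-DRA, at 0.36 ± 0.0694 (limma adjusted p = 6.16e-04). HLA-DRB1 rose with shSYK_2 by 1.09 ± 0.144 in MOLM-14 and by 0.86 ± 0.144 in U937, and fell by 0.50 ± 0.144 in HL-60. With shSYK_1 it rose by 0.41 ± 0.144 in MOLM-14 and by 0.47 ± 0.144 in U937, where HLA-DRA was not called. HLA-DQB1 rose in MOLM-14 by 1.07 ± 0.261 with shSYK_1 and 0.79 ± 0.261 with shSYK_2 and was not called in the other lines. Its response in MOLM-14 differed from that in HL-60 by 1.08 ± 0.309 (limma adjusted p = 0.0396) and from that in U937 by 0.97 ± 0.309 (limma adjusted p = 0.103). HLA-DOB, a chain of the HLA-DM inhibitor HLA-DO, was 0.92 ± 0.143 lower in U937 and 1.85 ± 0.143 lower in HL-60 than in MOLM-14 controls.

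Of the genes of endosomal antigen processing, over both hairpins 12 of 14 rose and 0 fell, with a median of 0.40, where 34.1% of all genes were called and 17.1% were higher. The counts were 12 and 0 with shSYK_1 (median 0.52, 35.6% of all genes called) and 7 and 0 with shSYK_2 (median 0.21, 30.3% called). In the direct test 9 were lower with shSYK_2 and 0 higher, against 35.7% called. CTSS, the cathepsin that cuts the invariant chain, rose by 0.66 ± 0.0374 (limma adjusted p = 1.05e-09) and CTSB by 0.50 ± 0.0339 (limma adjusted p = 8.39e-09). IFI30, a lysosomal thiol reductase, rose by 1.35 ± 0.0663 in HL-60 over both hairpins. In MOLM-14 it rose by 0.58 ± 0.0792 with shSYK_1 and fell by 0.60 ± 0.0792 with shSYK_2, the same pair of directions as CD86. CTSH rose by 1.83 ± 0.102 in HL-60, and its control level there was below that of U937 (-4.60 ± 0.109).

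The list of class II transcription genes holds coactivators such as EP300, CREBBP and KAT2B beside promoter-binding factors. It gave 2 higher and 6 lower of 14 over both hairpins, with a median of -0.06, against 34.1% of all genes called. With shSYK_2, the hairpin with which HLA-DRA rose, 0 were higher and 8 lower (median -0.26), against 30.3% called. IRF8, a myeloid transcription factor, fell by 0.51 ± 0.0309 (limma adjusted p = 2.69e-09), the NF-Y subunits NFYA and NFYB fell by 0.34 ± 0.0444 (limma adjusted p = 1.46e-05) and 0.29 ± 0.0415 (limma adjusted p = 3.95e-05), and RFXANK fell by 0.17 ± 0.035 (limma adjusted p = 0.00123). RFX5 gave -0.03 ± 0.0346 and was not called. In the controls, IRF8 followed the order of HLA-DRA: it was 1.43 ± 0.0571 lower in U937 and 2.49 ± 0.0571 lower in HL-60 than in MOLM-14. RFX5 and NFYA were lower in HL-60 than in MOLM-14 by 0.85 ± 0.0641 and 1.02 ± 0.0822.

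In the interferon gamma pathway 3 of 10 rose and 0 fell (median 0.06), close to the 34.1% of all genes called. They were the receptor chain IFNGR1 (0.50 ± 0.031), the kinase JAK1 (0.23 ± 0.038) and IRF2 (0.15 ± 0.0517). IFNGR1 was higher with each hairpin in each line, from 0.38 ± 0.0642 to 0.77 ± 0.0642. Among 12 other costimulatory and coinhibitory ligands 5 rose and 1 fell (median 0.09), against the same share. CD58 rose by 0.29 ± 0.034, and TNFSF14, a ligand of HVEM, by 0.41 ± 0.0689. TNFSF14 rose by 2.08 ± 0.143 with shSYK_1 and 1.05 ± 0.143 with shSYK_2 in HL-60, and in MOLM-14 it rose by 0.81 ± 0.143 with the first and fell by 0.73 ± 0.143 with the second. CD83, a marker of mature dendritic cells, fell by 0.19 ± 0.0497. Of 10 genes of CD40 signalling 3 rose and 1 fell (median -0.02), again close to 34.1%, with MAP3K14 at 0.53 ± 0.087 and TRAF3 at -0.25 ± 0.0413. Of 17 class I genes 8 rose and 3 fell (median 0.08) against the same 34.1%, among them the immunoproteasome subunits PSMB9 (0.35 ± 0.033) and PSMB8 (0.25 ± 0.029), which rose, and the chaperone CALR (-0.36 ± 0.0341) and the peptidase ERAP2 (-0.53 ± 0.0736), which fell.

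**Figure D5:**
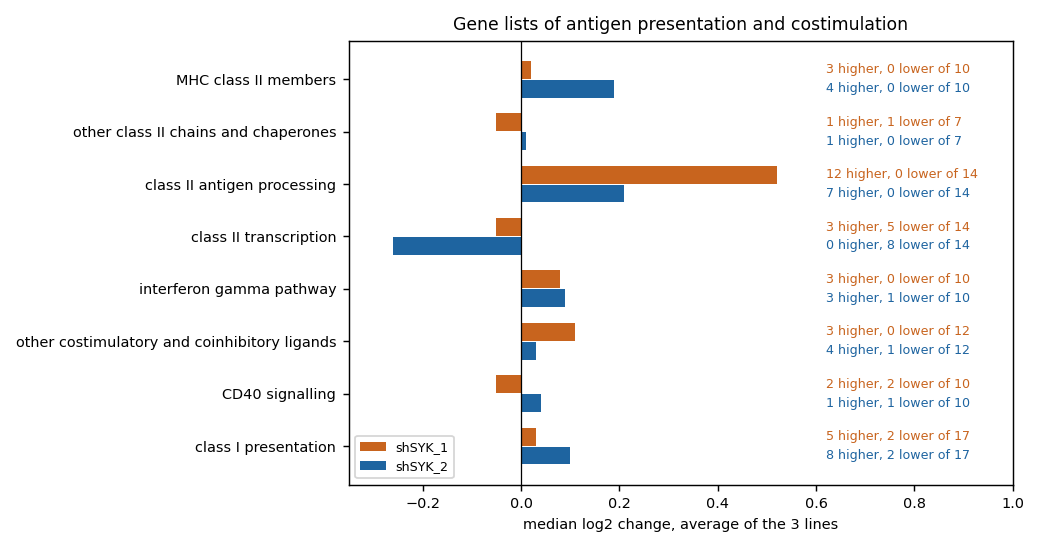
Median log2 change, averaged over the 3 lines (x axis), of the members and of 7 related gene lists with shSYK_1 and shSYK_2, and beside each bar the number of genes called higher and lower. Antigen processing genes have the highest medians, 0.52 and 0.21, and class II transcription with shSYK_2 the lowest, -0.26.

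Markers of other cell types and of myeloid maturation moved beside these results. Monocytic markers rose in 6 of 9 cases and fell in 0 over both hairpins (median 0.37), where 34.1% of all genes were called and 17.1% were higher. ITGAM, the integrin chain CD11b, rose by 1.73 ± 0.0636 with shSYK_1 and 0.21 ± 0.0636 with shSYK_2 on average, and CD14 rose by 2.39 ± 0.124 in HL-60. Their summed intensity in HL-60 went from 597 to 621 with shLuc to 1540 to 1550 with shSYK_1 and 1000 to 1050 with shSYK_2, the order of CD86 there. In U937 it went from 381 to 399 to 652 to 673 and 614 to 626. In MOLM-14 it went from 724 to 793 to 1030 to 1100 with shSYK_1 and 696 to 711 with shSYK_2. Over both hairpins and lines, promyelocytic markers rose in 0 and fell in 5 of 7 cases (median -0.21), against 34.1% called, MPO by 0.49 ± 0.0617. Their summed intensity did not fall in every group. In MOLM-14 it was 11100 to 11400 with shLuc, 10100 to 10200 with shSYK_1 and 14300 to 14400 with shSYK_2. In U937 it was 18600 to 19200, 15100 to 16100 and 17900 to 18900 in that order. In HL-60 it was 15500 to 16200, 10700 to 10900 and 13400. The part of these marker shifts in the CD86, HLA-DMA and CD74 results was not tested.

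Dendritic cell markers summed to 523 to 538 in MOLM-14 with shSYK_2, 395 to 439 with shLuc and 310 to 367 with shSYK_1, and 12 of 14 had group means under 5 in each of these groups. BATF3, a dendritic cell transcription factor, moved in both directions there: it rose by 0.51 ± 0.169 with shSYK_2 (limma adjusted p = 0.0476) and fell by 0.64 ± 0.169 with shSYK_1 (limma adjusted p = 0.00924). In U937, where HLA-DRA rose most, the same markers summed to 299 to 312 with shSYK_2 and 335 to 367 with shLuc, and BATF3 gave -0.30 ± 0.169 with either hairpin. Over both hairpins and all lines, B cell markers gave 0 higher and 0 lower of 9 by limma (1 at an unadjusted p under 0.05). Dendritic cell markers gave 1 and 0 of 14, T and NK cell markers 1 and 2 of 14, and epithelial and stromal markers 2 and 0 of 12. In this comparison 34.1% of all genes were called and 17.1% were called higher. B cell markers summed to 81.4 to 89.5 in MOLM-14 controls and 82.0 to 84.3 with shSYK_2, and to 113 to 115 and 109 to 120 in U937. With shSYK_1 they summed to 81.6 to 83.0 in MOLM-14 and 90.7 to 96.7 in U937. Whether a few cells of these types took part in the HLA-DRA result was not tested.

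The genes with the pattern most like that of HLA-DRA over the 9 group means, among 4615 genes whose means ranged over at least 1 log2 unit, were PNISR (r = 0.980), RBM34 (0.978), MRPS27 (0.975), LAIR1 (0.973) and CDC123 (0.972). Over the 21 arrays after subtraction of line means, among 1861 genes, they were RMND1 (0.908), ACSM3 (0.883), ZFAND1 (0.870), H2AC6 (0.860) and GSG1 (0.854). For CD86 the group means of RAB11FIP1 (0.964), CYLD (0.960), RBM47 (0.959), ATP6V0D1 (0.959) and ITPK1 (0.954) were most alike, and over the arrays those of TNFAIP2 (0.964), SGK1 (0.949), GLIPR1 (0.949), RAB11FIP1 (0.948) and RBM47 (0.943). RAB11FIP1 and RBM47 stand in both CD86 lists, while the HLA-DRA lists had no gene in common. The points share lines and hairpins, so these values describe likeness in these arrays and no more.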

How the data were processed

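Expression was measured on 21 arrays. The deposited intensities came from RMA, run by the authors per the submitters' processing notes. They lie on a linear scale from 3.232 to 13024.671 by the values themselves, and log2 was taken here. RMA corrects background, normalises between arrays and summarises each probe set. The version and settings of RMA are not given in the sources used.

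Of 22277 probe sets, the platform annotation gave 19724 a single symbol, 568 several and 1923 none, and 62 were control probe sets. Symbols were updated through gene IDs for 19707. The probe set with the highest mean stood for each gene, and no dim gene was left out. A single model of 9 group means was fitted across 12165 genes with limma 3.58.1 in R 4.3.3, with Benjamini-Hochberg adjustment per comparison and a threshold of 0.05. Arrays have no read depth, and the number of arrays limits the precision. The fit was tested on simulated data.

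The 10 members and 13 further lists were chosen with earlier results of these data known. From each further list up to 4 called genes with the smallest p in the average of lines or in a control comparison were named, together with markers that define a cell type. Some other list genes are named by choice made with their values in view. For HLA-DRA and CD86 the 5 most alike genes by Pearson correlation were named. Genes of the lists without a probe set of 1 symbol were not analysed here.

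Replicate numbers recur across groups. Deviations of same-numbered arrays from their group means correlated between -0.214 and 0.092, so the numbers were not taken to pair the arrays. Alternatives changed the probe set, filter, centring, offset, prior, array weights, arrays fitted, replicate block, threshold and the group of the array with conflicting labels, and left out each array.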

Additional observations from a re-analysis of the deposited data

Results flagged for a closer look

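Differences between lines in the response to knockdown, taken as the mean of both hairpins against shLuc, passed the test for 3 members. For CD86 the response in MOLM-14 minus that in U937 was -1.25 ± 0.192 (SE, limma adjusted p = 0.00101), and minus that in HL-60 it was -1.57 ± 0.192 (limma adjusted p = 6.78e-05). For CD74 the response in MOLM-14 minus that in HL-60 was -0.64 ± 0.114 (limma adjusted p = 0.00197), and in U937 minus HL-60 it was -0.72 ± 0.114 (limma adjusted p = 0.0011). For HLA-DRA the response in U937 minus that in HL-60 was 0.75 ± 0.179 (limma adjusted p = 0.0173). The CD86 response in MOLM-14 averages a rise with shSYK_1 and a fall with shSYK_2. The dimmer CD86 probe sets did not pass the test between MOLM-14 and U937. The second HLA-DRA probe set did not pass it between U937 and HL-60, and the HLA-DRA readings in HL-60 lay near the bottom of the scale. No group held enough arrays for a search for a single far array.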

How the results depend on the processing

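Of 6830 values of single members under 34 other settings, 6669 kept their side of the threshold, 100 lost the call and 61 gained it, and none of the called changes reversed. Changes that were not called could take either sign, as HLA-DRA with shSYK_1 in U937 did (-0.42 to 0.24). Requiring a change of at least 0.5 left 2 members called instead of 5 over both hairpins and lines, 1 instead of 4 for shSYK_2, 1 instead of 2 in MOLM-14 and 5 instead of 8 between HL-60 and MOLM-14 controls. An adjusted p under 0.01 left 2 for shSYK_2 and 1 in MOLM-14. With the array with conflicting labels placed in shSYK_1, 2 were called for shSYK_2 and 1 in MOLM-14. Leaving out the dimmest 40% of genes gave 4 of the 5 members then tested between HL-60 and MOLM-14 controls.

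Leaving out single arrays gave 4 to 5 members over both hairpins, 2 to 4 for shSYK_1, 3 to 4 for shSYK_2, 1 to 3 in MOLM-14 and 2 to 4 in HL-60. The share of all genes called under each alternative setting is not given here. A change in any count of this section is therefore not a result about the members. With the replicate block 1 member was called in MOLM-14 and 5 between HL-60 and MOLM-14 controls. Under that block the response differences were lost for HLA-DRA between U937 and HL-60 (0.86, limma adjusted p = 0.053) and for CD74 between MOLM-14 and HL-60 (-0.60, limma adjusted p = 0.0702). The CD86 difference between MOLM-14 and U937 was lost with an offset of 16 (-0.46, limma adjusted p = 0.0685) and with the conflicting array placed in shSYK_1 (-1.25, limma adjusted p = 0.0598). The causes were not tested. Signals near the bottom of the scale limit CIITA, CD80 and HLA-DPB1 in every line. They also limit HLA-DRA, HLA-DMA and HLA-DMB in HL-60, HLA-DPA1 in U937 and HL-60, and CD86 in U937 controls.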
